A study of Mus musculus with 12 samples.

Results

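The Bcl2 family decides whether a cell keeps its mitochondria intact or enters apoptosis, and 10 of its members were followed here across macrophages and monocytes of the mouse bone marrow. They were found by mouse symbol among the 56953 genes of the deposited tables, and each matched 1 Ensembl row. The prosurvival members were Bcl2a1a, Bcl2a1b, Bcl2a1d, Bcl2, Bcl2l1 (the gene of Bcl-xL) and Mcl1. The initiators of death, which share only the BH3 domain with the rest of the family, were Bcl2l11 (Bim) and Bbc3 (Puma), and the effectors that open the outer mitochondrial membrane were Bax and Bak1. The family was chosen by measured values: the log2 difference of the Bcl2a1 copies between the monocyte groups put them among the clearest genes of that comparison. The values of these copies in any comparison that holds a monocyte group are therefore a description with no test, and only their comparison between the macrophage groups is read as one.

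Cells came from female C57BL/6J mice of 8 weeks that carried a Cre recombinase in the Rank locus and a Cre-dependent eYFP reporter in the Rosa26 locus (Rank cre/+;R26.eYFP fl/+), so all 4 groups share both alleles. The 4 groups of 3 libraries each were eYFP+ macrophages, of embryonic origin by the reporter, eYFP- macrophages, taken as descendants of adult hematopoietic stem cells, Ly6Chi monocytes and Ly6Clo monocytes. Macrophages were sorted as F4/80hi cells and monocytes by their level of Ly6C. The eYFP- gate rests on the absence of label, and the labels do not say whether the 3 libraries of a group came from separate mice, so p-values measure only the spread between these libraries.

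In healthy cells the prosurvival proteins bind and hold back both the effectors and the BH3-only proteins. BH3-only proteins rise or are activated on stress, loss of growth factors or DNA damage, and once they occupy the prosurvival proteins, Bax and Bak1 form pores that release cytochrome c and lead to caspase activation. Mcl1 and the Bcl2a1 proteins are short-lived and much used by myeloid cells, whereas Bcl2 is best known from lymphocytes and Bcl-xL from erythroid cells and platelets.

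The mouse genome holds several copies of Bcl2a1 in 1 cluster on chromosome 9, and how alike they are limits how well their reads can be told apart. In the GENCODE M21 transcripts Bcl2a1a (819 bases) and Bcl2a1b (817 bases) shared 98.2% of their aligned bases, Bcl2a1a and Bcl2a1d (863 bases) 98.8%, and Bcl2a1b and Bcl2a1d 99.1%. Of all stretches of 100 bases, 43.5% of those in Bcl2a1a, 31.1% of those in Bcl2a1b and 54.7% of those in Bcl2a1d also occur in another copy, and of stretches of 200 bases 18.5%, 2.9% and 17.3%. The authors counted only read pairs that were placed unambiguously, so pairs that could not be told apart are missing from each copy, and how many were lost is not known. The likeness extended upstream. The stretches printed here lie before the start of transcription in the RefSeq promoter table (GRCm38.p6), 66 bases upstream of it for Bcl2a1a and Bcl2a1d and 110 for Bcl2a1b. They are shown because these copies share their low level in Ly6Chi monocytes while the share of Bcl2a1d differs between cell types, with matches to GAGGAAG, the core that the myeloid factor PU.1 recognises, in capitals.
Bcl2a1a (chr9:88956790-88956853, plus strand): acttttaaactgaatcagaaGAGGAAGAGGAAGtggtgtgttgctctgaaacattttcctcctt
Bcl2a1b (chr9:89199099-89199162, plus strand): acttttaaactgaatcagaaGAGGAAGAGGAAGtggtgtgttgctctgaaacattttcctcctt
Bcl2a1d (chr9:88731917-88731974, minus strand): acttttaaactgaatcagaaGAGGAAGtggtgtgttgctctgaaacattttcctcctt
The stretches of Bcl2a1a and Bcl2a1b are identical and hold 2 overlapping matches, while that of Bcl2a1d has 0 mismatches to them but lacks 6 bases and holds 1 match. GAGGAAG occurs on either strand in 13.6% of the 32851 promoters of 300 bases in the table. As stretches of near-identical copies, those of Bcl2a1 do not count as separate matches against this share. A link between these stretches and the levels of the copies was not tested. Among the other 7 members, 1 promoter of Bcl2 and 1 of Bak1 held a match and no promoter of Bcl2l1, Mcl1, Bcl2l11, Bax or Bbc3 did. The core GGNNNTTCC of NF-kB sites, present in 18.5% of promoters, was not found in these windows of the Bcl2a1 copies and was found in a promoter of Bcl2l1, Mcl1, Bak1 and Bbc3.

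The libraries held between 26390927 and 48618187 counts, and values below are normalized counts (deposited counts divided by the size factor of the library) unless TPM, which also accounts for gene length, is named. The macrophage markers Adgre1, Mrc1, Vcam1, Cd5l and Fcna summed to between 19620 and 28350 TPM in the macrophage libraries and between 264 and 756 TPM in the monocyte libraries. The markers Ly6c2 and Ccr2 summed to between 6532 and 7629 TPM in Ly6Chi monocytes and to at most 278 TPM elsewhere. A pair of libraries, eYFP+ replicate 1 and Ly6Clo replicate 2, stood apart in GC-rich transcripts. Their median log2 deviation from the other libraries of the group was -0.75 and -1.31 over 943 genes with at least 58% GC, and 0.26 and 0.44 over 3527 genes under 45% GC. Bbc3 (65.2% GC) and Bax (63.5%) exceed 58%, and Bak1 (57.1%) and Bcl2l1 (55.9%) lie below it. The Bcl2a1 copies (44.1% to 44.6%), Bcl2 (46.3%), Bcl2l11 (48.0%) and Mcl1 (48.7%) are lower in GC. Deviations of the members did not all follow GC. In eYFP+ replicate 1 Bax was at -2.0 and Bbc3 at -2.47, but Bcl2 at -3.12. In Ly6Clo replicate 2 Bbc3 was at -3.04, but Bax at 0.48, Bak1 at 0.17 and Bcl2l11 at -1.90. Ly6Clo replicate 2 also had fewer genes detected (16434) than replicates 1 and 3 of its group (24769 and 22254).

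**Figure D1:**
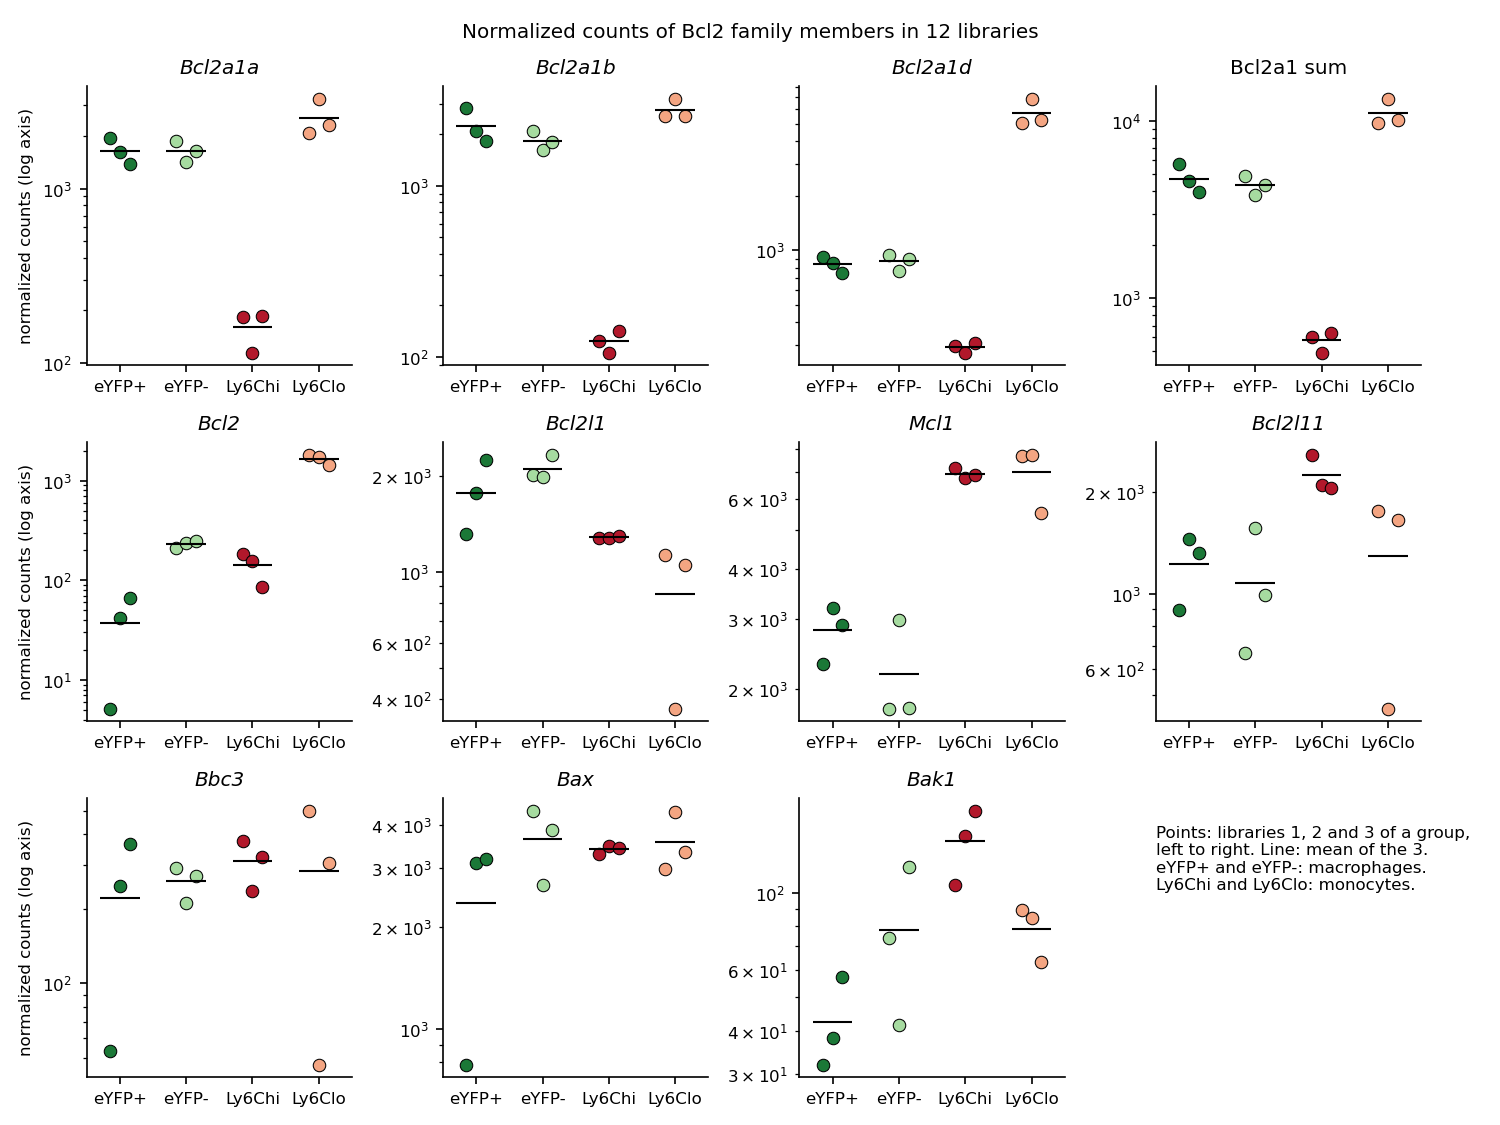
Normalized counts (log axis) of the 10 members and of the summed Bcl2a1 copies in each of the 12 libraries by group, where points are libraries 1, 2 and 3 from left to right and lines are group means. The Bcl2a1 panels are lowest in Ly6Chi monocytes, Bcl2 falls to 5.15 in eYFP+ replicate 1, and Bax and Bbc3 have a single low eYFP+ library.

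Among the prosurvival members, the Bcl2a1 copies separated the monocyte groups by 19.2-fold in their sum. Their summed normalized counts were 9704, 13360 and 10110 in the 3 Ly6Clo monocyte libraries and 606, 492 and 634 in the 3 Ly6Chi libraries. In macrophages the sum was 5690, 4558 and 3950 in eYFP+ and 4887, 3810 and 4354 in eYFP- libraries. The order was thus Ly6Clo monocytes, both macrophage groups, Ly6Chi monocytes, with no overlap except between the macrophage groups. The log2 difference of the sum, Ly6Chi minus Ly6Clo, was -4.26 ± 0.26 (SE). All 5 macrophage markers were also lower in Ly6Chi than in Ly6Clo monocytes by DESeq2, with sums of 264 to 312 and 522 to 756 TPM, and their part in this difference was not tested. In log2 differences eYFP+ macrophages stood at 3.04 ± 0.26 from Ly6Chi and -1.23 ± 0.26 from Ly6Clo monocytes, and eYFP- macrophages at 2.91 ± 0.26 and -1.35 ± 0.26. These comparisons share their groups and follow from 1 set of levels.

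Each copy alone showed the low level in Ly6Chi monocytes. Bcl2a1a had 184, 114 and 186 normalized counts in Ly6Chi and 2081, 3277 and 2308 in Ly6Clo monocytes, Bcl2a1b had 124, 106 and 142 against 2555, 3222 and 2565, and Bcl2a1d had 298, 272 and 306 against 5068, 6865 and 5240. The log2 differences were -3.99 ± 0.31, -4.49 ± 0.28 and -4.29 ± 0.23 (SE). Ly6Clo monocytes expressed Bcl2a1d well above macrophages, which had 749 to 941 normalized counts of it, while Bcl2a1b in eYFP+ macrophages (1812 to 2825) overlapped with Ly6Clo monocytes. Bcl2a1a ranged from 1389 to 1948 in macrophages.

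The copies thus contributed differently in the cell types. Bcl2a1d held between 48.3% and 55.3% of the summed counts in the 6 monocyte libraries and between 16.1% and 20.6% in the 6 macrophage libraries. This held at very different totals, with 405 to 571 summed counts in Ly6Chi and 9955 to 11433 in Ly6Clo libraries: the mean share was 50.9% ± 3.8 (SD, n = 3) in the former and 51.8% ± 0.43 (n = 3) in the latter. Bcl2a1b had the most unambiguous counts of the copies in macrophages, with a mean share of 47.2% ± 2.1 (SD, n = 3) among eYFP+ libraries and of 42.2% ± 0.58 (n = 3) among eYFP- libraries, against 21.5% ± 0.96 in Ly6Chi and 25.3% ± 1.1 in Ly6Clo libraries. Bcl2a1a took 34.9% ± 0.59, 37.9% ± 0.38, 27.6% ± 3.8 and 22.9% ± 1.5 in the same order. In log2 differences between macrophages and monocytes (the mean of the log2 macrophage group levels minus that of the log2 monocyte group levels), Bcl2a1a was 1.36 ± 0.22 and Bcl2a1b 1.79 ± 0.19 higher in macrophages and Bcl2a1d differed by -0.60 ± 0.16 (SE). The sum was at 0.84 ± 0.18 on this scale, where the low Ly6Chi level weighs as much as the high Ly6Clo level, whereas its plain mean was lower in macrophages (4542 normalized counts) than in monocytes (5819). Since Bcl2a1b shares fewer of its stretches with another copy than Bcl2a1a and Bcl2a1d do at 100 and at 200 bases, shares within a group do not rank the copies by their RNA. A further copy, Bcl2a1c, had 0 to 7 counts per library.

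**Figure D2:**
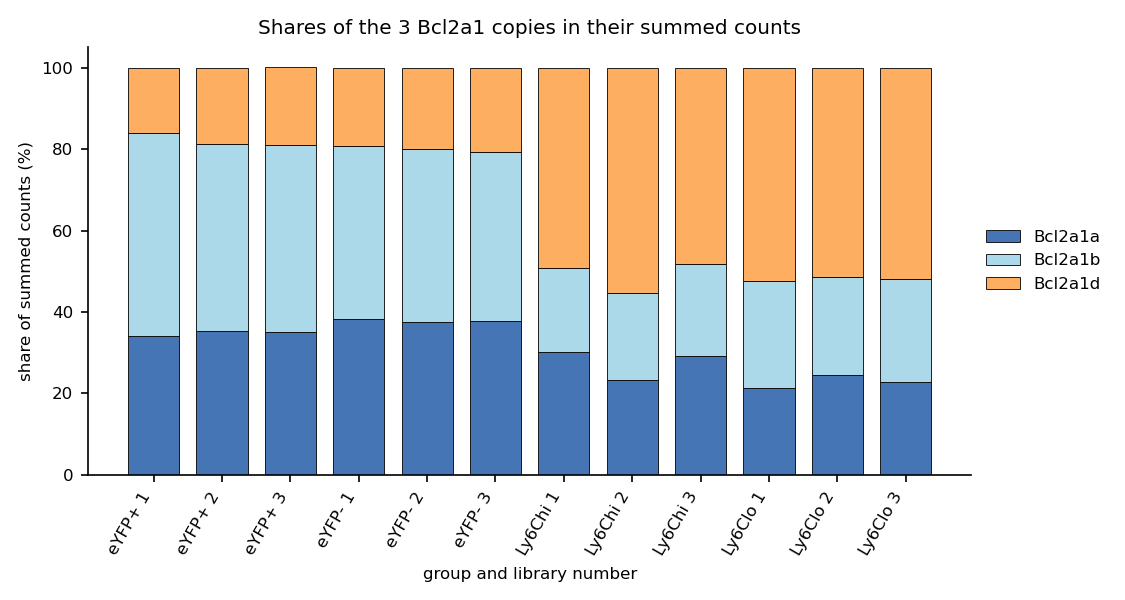
Share of the summed counts (percent, 0 to 100) taken by Bcl2a1a, Bcl2a1b and Bcl2a1d in each of the 12 libraries. Bcl2a1d takes 48.3% to 55.3% in monocyte libraries and 16.1% to 20.6% in macrophage libraries.

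Between the macrophage groups no difference of Bcl2a1 was detected. The mean of the sum was 4733 ± 883 (SD, n = 3) for eYFP+ cells and 4351 ± 538 (n = 3) for eYFP- cells, which is a log2 difference of 0.12 ± 0.26 (SE, 95% interval from -0.39 to 0.63, DESeq2 adjusted p = 1), and without eYFP+ replicate 1 the difference was -0.03. The intervals of the single copies ran from -0.60 to 0.60 for Bcl2a1a, from -0.24 to 0.82 for Bcl2a1b and from -0.50 to 0.40 for Bcl2a1d.

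Over all 12 libraries, the genes whose centred log2 profile lay closest to that of the Bcl2a1 sum, of 10929 ranked, were Treml4, Slamf9 and Bhlhe40, with root mean square differences of 0.330, 0.347 and 0.375. Treml4, a myeloid surface receptor that is itself on the list of Ly6Clo monocyte markers used here, had group means of 27080 (eYFP+), 22210 (eYFP-), 2718 (Ly6Chi) and 41840 (Ly6Clo) normalized counts. Bhlhe40, a transcription factor of resident macrophages and activated lymphocytes, had 2832, 2872, 489 and 5200, and Slamf9, a receptor of the SLAM family, 1537, 926, 223 and 3755 in the same order.

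Bcl2, the founding member of the family, was the only 1 of the 10 members that differed between the macrophage groups, where DESeq2 called 2.07% of 21195 tested genes in either direction, 1.92% lower and 0.156% higher. It had 5.15, 42.0 and 65.9 normalized counts in the 3 eYFP+ libraries and 212, 235 and 250 in the 3 eYFP- libraries. The groups did not overlap, and eYFP+ replicate 1, with 5 counts, was the lowest of all 12 libraries. The log2 difference was -2.61 ± 0.60 (SE, DESeq2 adjusted p = 0.0018), and on leaving out single libraries it ran from -2.10 (without eYFP+ replicate 1, DESeq2 adjusted p = 3.93e-05) to -3.30 (without eYFP+ replicate 3, DESeq2 adjusted p = 8.88e-05). With edgeR the same comparison was not called, at a log2 difference of -2.63 and an adjusted p of 0.119, and across 26 alternatives the adjusted p ran from 4.09e-07 to 0.249, with 23 calls, and the log2 difference from -3.30 to -1.09, the smallest with limma on log2(TPM + 1), a scale that understates changes of low genes. In these bulk samples fewer cells that express a gene and less of its RNA per cell cannot be told apart.

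Genes of several marker lists were also called lower in eYFP+ macrophages. The T and NK cell list (Cd3e, Cd3g, Trbc2, Ncr1, Klrb1c, Gzma, Nkg7) summed to between 9.76 and 23.7 TPM in eYFP+ and between 62.3 and 124 TPM in eYFP- libraries, and 1 of its 7 genes, Nkg7, was called lower. Of 10 neutrophil and granulocyte progenitor genes 3 were called lower (Camp, Ngp and Mpo; 163 to 238 against 235 to 2595 TPM), of 4 dendritic cell genes 2 (Flt3 and Xcr1; 2.33 to 8.01 against 14.8 to 26 TPM), and of 4 tested eosinophil, basophil and mast cell genes 1 (Mcpt8; 6.07 to 14.8 against 253 to 1312 TPM). Of the 3 tested B cell genes none was called by DESeq2, with list sums of 470 to 701 against 454 to 584 TPM. Of the erythroid list 2 of 7 genes were called lower (Klf1 and Slc4a1; 5526 to 9892 against 13800 to 23530 TPM), and of 4 tested megakaryocyte genes 1 (Itga2b; 122 to 200 against 136 to 184 TPM). Among monocyte markers Ccr2 was called lower (with Ly6c2, 2.30 to 4.48 against 4.46 to 31.9 TPM), as was 1 of the 5 genes of the Ly6Clo monocyte list, the group with the highest Bcl2 level (Spn; 668 to 1155 against 673 to 828 TPM). Of all these markers Gp1bb of the megakaryocyte list was at 0 in the 3 eYFP+ libraries, and none was at 0 in all eYFP- libraries. Bcl2 itself stood at 0.033 to 0.504 TPM in eYFP+ and 1.41 to 1.89 TPM in eYFP- libraries. The part of such cells in the Bcl2 difference was not tested.

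In monocytes Bcl2 followed the direction of the Bcl2a1 copies. It had 1829, 1731 and 1453 normalized counts in Ly6Clo and 184, 156 and 85.0 in Ly6Chi libraries, with no overlap and an 11.8-fold difference. The log2 difference was -3.56 ± 0.59 (SE, DESeq2 adjusted p = 1.69e-07, edgeR adjusted p = 0.00878), and it was called in 26 of 26 alternatives, with adjusted p from 4.09e-23 to 0.0322. Ly6Clo monocytes thus held the highest Bcl2 level of the 4 groups. Relative to them, eYFP+ macrophages differed by -5.46 ± 0.60 and eYFP- macrophages by -2.85 ± 0.59 on the log2 scale (DESeq2 adjusted p = 5.05e-18 and 1.64e-05). eYFP- macrophages and Ly6Chi monocytes did not overlap but were not separated by the test (log2 difference 0.71, 95% interval from -0.45 to 1.88, DESeq2 adjusted p = 0.431), while eYFP+ macrophages lay below Ly6Chi monocytes by a log2 difference of -1.90 ± 0.60 (DESeq2 adjusted p = 0.00808). Markers of other cells went both ways between the monocyte groups. Of 10 neutrophil and granulocyte progenitor genes Elane and Mpo were called higher in Ly6Chi monocytes (log2 8.71 ± 1.70 and 5.68 ± 0.73, DESeq2 adjusted p = 1.86e-05 and 1.24e-12), with list sums of 15760 to 23870 against 6798 to 16070 TPM. The T and NK cell list summed to between 19.5 and 25.9 TPM in Ly6Clo and 28.2 and 51.2 TPM in Ly6Chi libraries, with Nkg7 called higher in Ly6Chi and Ncr1 in Ly6Clo monocytes (log2 1.85 ± 0.35 and -4.51 ± 1.30, DESeq2 adjusted p = 5.99e-06 and 0.00952). The B cell list, with Ms4a1 at 0 in all 3 Ly6Clo libraries, summed to between 53.9 and 140 TPM against 28.2 to 34.4 TPM, and 1 of its 3 tested genes, Cd79b, was called higher in Ly6Clo monocytes. Also called higher there were Prg2 and Epx of the eosinophil, basophil and mast cell list (0 to 557 against 0.82 to 42.7 TPM), of which Mcpt8 was lower, Zbtb46 and Xcr1 of the dendritic cell list (8.57 to 55.4 against 19.3 to 31.2 TPM) and Pf4 of the megakaryocyte list (58.2 to 75 against 2.13 to 3.97 TPM). The part of such cells in this difference was not tested either.

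Mcl1, whose protein is short-lived, separated the cell types. It had 7148, 6778 and 6872 normalized counts in Ly6Chi and 7693, 7736 and 5527 in Ly6Clo monocytes, against 2317, 3199 and 2896 in eYFP+ and 1785, 2982 and 1788 in eYFP- macrophages. Every monocyte library was above every macrophage library. The log2 difference of macrophages from monocytes was -1.49 ± 0.21 (SE, DESeq2 adjusted p = 1.67e-11, edgeR adjusted p = 6.0e-05), called in 25 of 25 alternatives with log2 values from -1.77 to -1.38. Each macrophage group was also lower than each monocyte group, with log2 differences from -1.68 to -1.31 and a DESeq2 adjusted p of at most 9.05e-05. Between the monocyte groups the difference was -0.01 (95% interval from -0.59 to 0.57, DESeq2 adjusted p = 0.996), a sign that turned under several settings, and between the macrophage groups 0.36 (from -0.22 to 0.94, DESeq2 adjusted p = 0.936). Of 10 neutrophil and granulocyte progenitor genes 7 were also lower in macrophages, with sums of 163 to 2595 TPM against 6798 to 23870 TPM in monocyte libraries, and their part in the Mcl1 difference was not tested.

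Bcl2l1 went the other way. It had 1310, 1763 and 2237 normalized counts in eYFP+ and 2006, 1978 and 2330 in eYFP- macrophages, against 1278, 1279 and 1300 in Ly6Chi and 1129, 373 and 1053 in Ly6Clo monocytes. The lowest macrophage library, eYFP+ replicate 1, was only just above the highest monocyte library. The log2 difference of macrophages from monocytes was 0.88 ± 0.29 (SE, DESeq2 adjusted p = 0.00782, edgeR adjusted p = 0.0248). It was called in 25 of 25 alternatives with values from 0.57 to 1.04, and without Ly6Clo replicate 2, the low library, it was 0.65. With a GC correction it was 0.58 where the median of all tested genes moved from 0.078 to -0.195. By pairs of groups, eYFP+ and eYFP- macrophages exceeded Ly6Clo monocytes (log2 1.06 ± 0.41 and 1.30 ± 0.41, DESeq2 adjusted p = 0.0382 and 0.00744), the first of these not by edgeR (adjusted p = 0.0677), and neither was called against Ly6Chi monocytes (DESeq2 adjusted p = 0.454 and 0.204). Erythroid markers, whose lineage uses Bcl-xL, were present in the macrophage libraries: 7 of 7 were called higher than in monocytes and summed to between 5526 and 9892 TPM in eYFP+, 13800 and 23530 TPM in eYFP-, and 233 and 842 TPM in monocyte libraries. Of 4 tested megakaryocyte genes, the platelet lineage, 3 (Pf4, Itga2b and Gp9) were called higher in macrophages as well, with sums of 122 to 200 TPM against 2.13 to 75 TPM in monocyte libraries. The part of these cells in the Bcl2l1 level was not tested.

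The makeup of the prosurvival members differed between the groups, and their total depended on the scale. Their summed TPM was 369 ± 9.6 (SD, n = 3) in eYFP+ macrophages, 353 ± 8.9 in eYFP- macrophages, 156 ± 6.1 in Ly6Chi monocytes and 759 ± 83 in Ly6Clo monocytes. In summed normalized counts, which weight long transcripts more, Ly6Clo monocytes were again highest (18150 to 23200), but Ly6Chi monocytes (8704 to 9216) overlapped with eYFP- (8722 to 9005) and eYFP+ macrophages (9150 to 9562). The Bcl2a1 copies made up 78.7% ± 6.1, 77.7% ± 4.2, 21.2% ± 2.1 and 83.3% ± 3.2 of the summed TPM. The share depends on the scaling by length: with normalized counts, which do not account for it, it was 50.6%, 49.1%, 6.5% and 53.7% in the same order, lowest in Ly6Chi monocytes on both scales. In Ly6Chi monocytes Mcl1 was instead the main contributor, with 62.7% ± 1.5 of the summed TPM against 9.62% to 13.0% in the means of the other groups. In mean normalized counts Mcl1 held 6933 of 8937 in Ly6Chi monocytes. It held 2804 of 9345 in eYFP+ macrophages, 2185 of 8872 in eYFP- macrophages and 6985 of 20570 in Ly6Clo monocytes, larger shares than by TPM. Its own TPM differed between the monocyte groups by less than their spread, at 97.8 ± 2.6 in Ly6Chi and 99 ± 19.4 in Ly6Clo libraries. By TPM Bcl2l1 made up 9.77% and 12.2% in macrophages, 15.5% in Ly6Chi and 2.23% in Ly6Clo monocytes, and Bcl2 at most 1.76% in any library. These shares also depend on the scale. Bcl2l1 had mean normalized counts of 1770 (eYFP+), 2105 (eYFP-), 1286 (Ly6Chi) and 852 (Ly6Clo). On that scale its share was larger in macrophages than in Ly6Chi monocytes. Bcl2 had 1671 of 20570 in Ly6Clo monocytes, a larger share than by TPM.

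**Figure D3:**
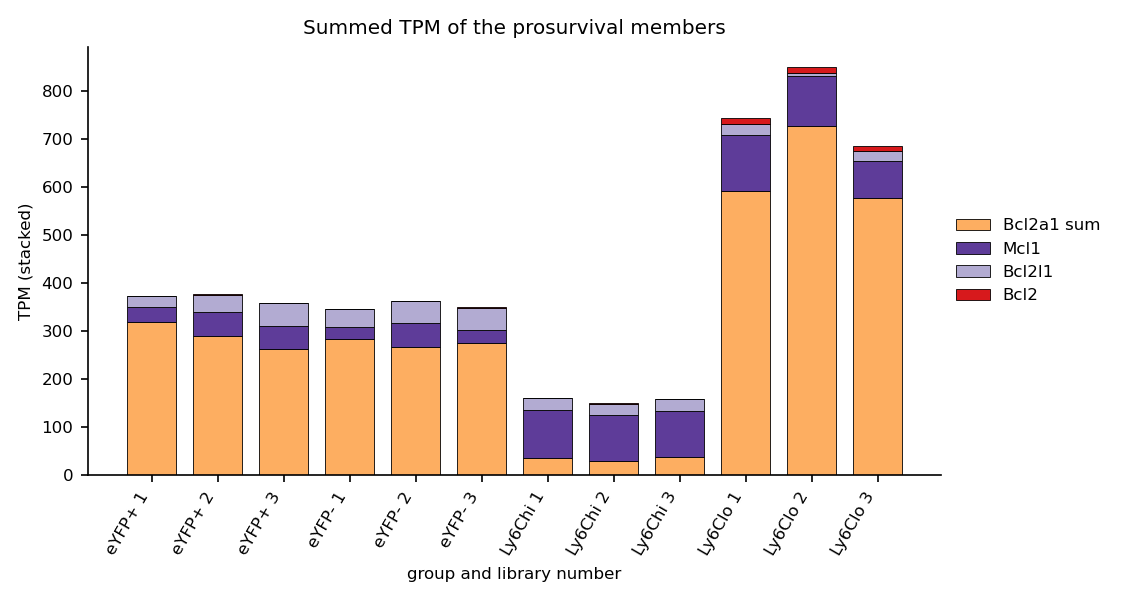
TPM of the summed Bcl2a1 copies, Mcl1, Bcl2l1 and Bcl2 stacked for each of the 12 libraries, on an axis that starts at 0. Ly6Clo monocyte bars reach 685 to 850 TPM and are mostly Bcl2a1, while Ly6Chi bars reach 149 to 161 TPM and are mostly Mcl1.

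The BH3-only members showed no call in the 3 main comparisons. Bcl2l11, which responds to loss of growth factors, had 2574, 2091 and 2047 normalized counts in Ly6Chi monocytes, above every library of the other groups. Ly6Clo monocytes had 1759, 457 and 1655, eYFP+ macrophages 895, 1449 and 1316, and eYFP- macrophages 667, 1558 and 991. The spread was wide, with Ly6Clo replicate 2 the lowest library. The log2 difference of macrophages from monocytes was -0.57 ± 0.35 (SE, DESeq2 adjusted p = 0.209). It was called in 3 of 25 alternatives, at -0.83 without Ly6Clo replicate 2 (DESeq2 adjusted p = 0.00242), and over all alternatives the adjusted p ran up to 0.61. Between the monocyte groups it was 0.79 (95% interval from -0.18 to 1.77) and between the macrophage groups 0.19 (from -0.79 to 1.16).

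Bbc3, a target of p53, had 53.5, 248 and 365 normalized counts in eYFP+ macrophages, 293, 212 and 273 in eYFP- macrophages, 377, 237 and 323 in Ly6Chi monocytes and 499, 46.9 and 308 in Ly6Clo monocytes. The lowest values belonged to the libraries that were low in GC-rich transcripts, and the groups overlapped throughout. The log2 differences were -0.22 ± 0.73, 0.13 ± 0.73 and -0.31 ± 0.52 (SE) for eYFP+ against eYFP-, Ly6Chi against Ly6Clo, and macrophages against monocytes, with DESeq2 adjusted p of 1, 0.954 and 0.696. Their 95% intervals ran from -1.66 to 1.21, from -1.30 to 1.57 and from -1.33 to 0.70. Without the libraries in question the first was 0.24 (without eYFP+ replicate 1) and the second -0.37 (without Ly6Clo replicate 2). With the GC correction macrophages lay below monocytes by -1.09 (DESeq2 adjusted p = 0.00583), against a range of 0.00583 to 0.991 over all alternatives. That correction also moved the median of all tested genes from 0.078 to -0.195.

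Of the effectors, Bax was the more abundant. Its mean TPM was 144 ± 88.9 (SD, n = 3) in eYFP+ macrophages, 218 ± 35.2 in eYFP- macrophages, 189 ± 5.2 in Ly6Chi and 198 ± 30.4 in Ly6Clo monocytes, against 0.92 to 2.85 in the group means of Bak1. Bax had 784, 3105 and 3185 normalized counts in eYFP+, 4422, 2670 and 3878 in eYFP-, 3299, 3469 and 3432 in Ly6Chi and 2966, 4397 and 3334 in Ly6Clo libraries. eYFP+ replicate 1 stood alone at the low end. The log2 difference of eYFP+ from eYFP- macrophages was -0.63 ± 0.47 (SE, DESeq2 adjusted p = 0.89) and -0.22 without that library, that of Ly6Chi from Ly6Clo monocytes -0.07 (95% interval from -0.99 to 0.85), and that of macrophages from monocytes -0.25 (from -0.90 to 0.41, DESeq2 adjusted p = 0.622). With the GC correction the last was -1.30 (DESeq2 adjusted p = 0.00368), where the median of all tested genes moved from 0.078 to -0.195. It was 0.01 with eYFP+ replicate 1 and Ly6Clo replicate 2 both left out.

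Bak1 was low everywhere. It had 31.9, 38.1 and 57.0 normalized counts in eYFP+ macrophages, 73.9, 41.7 and 119 in eYFP- macrophages, 105, 146 and 173 in Ly6Chi monocytes and 89.1, 84.4 and 63.0 in Ly6Clo monocytes. Each eYFP+ library was below each monocyte library, and the eYFP- libraries spread across the range. The log2 difference of macrophages from monocytes was -0.87 ± 0.33 (SE, DESeq2 adjusted p = 0.0261), a call that stood in 12 of 25 alternatives with adjusted p from 0.00269 to 0.102, and was lost by edgeR (adjusted p = 0.0539) and on leaving out any of 7 single libraries. The difference of eYFP+ macrophages from Ly6Chi monocytes was -1.73 ± 0.47 (DESeq2 adjusted p = 0.00144, edgeR adjusted p = 0.0172). That of eYFP+ from eYFP- macrophages was -0.88 (95% interval from -1.80 to 0.05, DESeq2 adjusted p = 0.631).

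Counted over the family, DESeq2 called 1 of 10 members between the macrophage groups, 4 between the monocyte groups and 7 between the cell types. The 4 were Bcl2 and the 3 Bcl2a1 copies, all lower in Ly6Chi monocytes, where 8.82% of all tested genes were called, 5.08% lower and 3.74% higher. Of the 7, Bcl2a1a, Bcl2a1b and Bcl2l1 were higher and Bcl2a1d, Bcl2, Mcl1 and Bak1 lower in macrophages, against 36% of all tested genes called, 20.7% higher and 15.3% lower. The Bcl2a1 copies were chosen for their monocyte difference and nothing is read from their part in these counts. By pairs of groups, 6 members were called between eYFP+ macrophages and Ly6Chi monocytes (28.7% of all tested genes), 4 between eYFP+ macrophages and Ly6Clo monocytes (26.1%), 4 between eYFP- macrophages and Ly6Chi monocytes (25.5%) and 4 between eYFP- macrophages and Ly6Clo monocytes (26.8%). Mcl1 was among the called members in each of these 4.

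**Figure D4:**
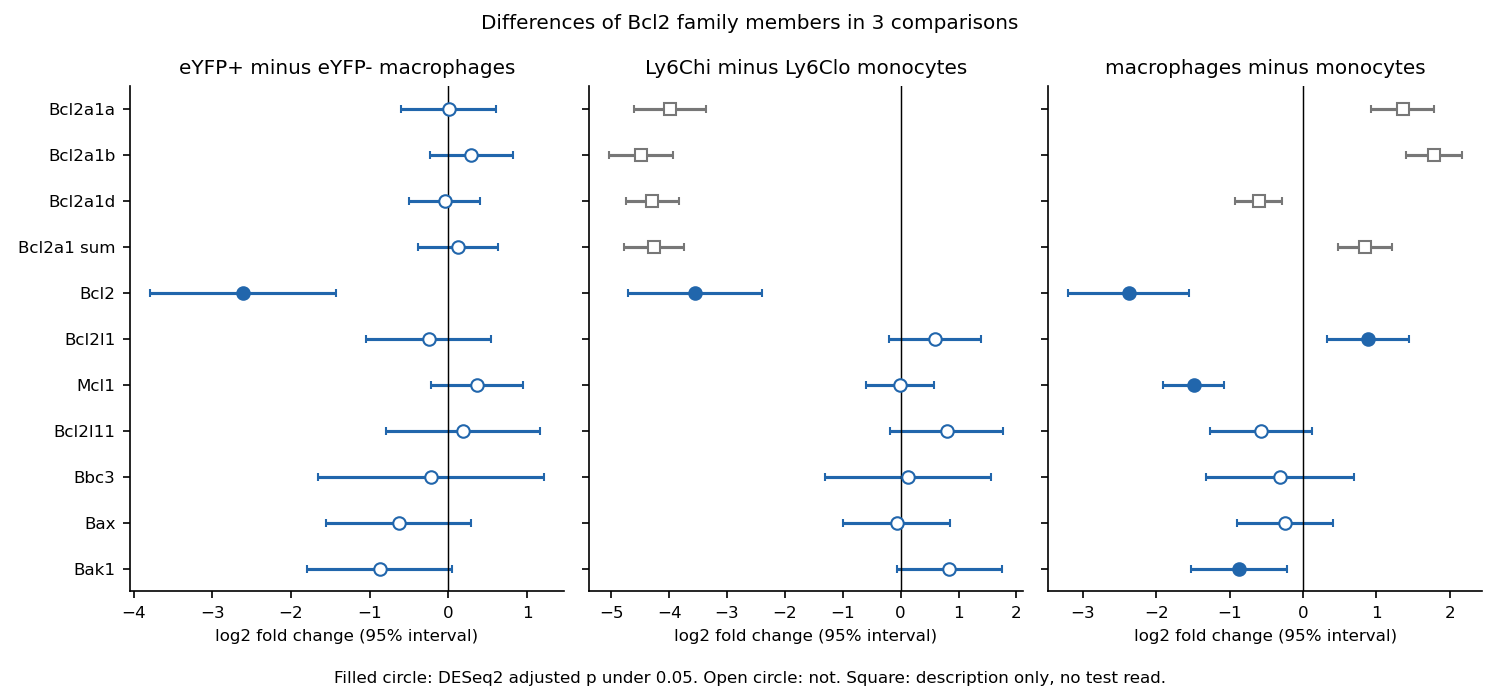
Log2 fold changes with 95% intervals of each member and of the summed Bcl2a1 copies in 3 comparisons, filled circles where the DESeq2 adjusted p is under 0.05, open circles where it is not, and squares for values given as description. Bcl2 is the only filled circle between macrophage groups (-2.61) and lies left of 0 in each comparison, and Mcl1 lies left of 0 (-1.49) and Bcl2l1 right of 0 (0.88) between macrophages and monocytes.

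The wider apoptosis machinery was read from 64 further genes in 9 lists. DESeq2 called 1 of 60 tested genes between the macrophage groups, where 2.07% of all tested genes were called, and 11 of 60 between the monocyte groups (4 higher and 7 lower in Ly6Chi), where 8.82% were. Between the cell types it called 24 of 62 (8 higher and 16 lower in macrophages), a share near the 36% of all tested genes that were called (20.7% higher and 15.3% lower). Their median log2 differences were 0.03, 0.02 and -0.22, against 0.05, 0.01 and 0.08 for all genes tested.

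Among the other BH3-only genes 3 of 5 tested were lower in macrophages, as were 15.3% of all tested genes. Bid, which links death receptors to mitochondria, had means of 964 ± 101 (SD, n = 3) in eYFP+, 1504 ± 301 in eYFP-, 4855 ± 292 in Ly6Chi and 4093 ± 1644 in Ly6Clo libraries, a log2 difference of macrophages from monocytes of -1.89 ± 0.23 (SE, DESeq2 adjusted p = 3.2e-15). For Bmf the log2 difference was -2.54 ± 0.47 and for Pmaip1 (Noxa), which neutralises Mcl1, -1.63 ± 0.34 (DESeq2 adjusted p = 5.34e-07 and 1.39e-05). Pmaip1 was also lower in Ly6Chi than in Ly6Clo monocytes, at 2034 ± 530 against 12100 ± 8008 (log2 -2.57 ± 0.48, DESeq2 adjusted p = 7.59e-06). Macrophages had 1603 ± 739 (eYFP+) and 1600 ± 124 (eYFP-), within the spread of Ly6Chi monocytes, so for Pmaip1 the lower level was against Ly6Clo monocytes. Bad, which binds Bcl-xL, was higher in Ly6Chi monocytes by 1.11 ± 0.31 on the log2 scale (DESeq2 adjusted p = 0.00654).

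Of the 7 effectors and distant relatives, Bcl2l12 and Bcl2l15 were higher and Bnip3l, a mitophagy receptor, lower in macrophages (DESeq2 adjusted p of at most 0.00875), with log2 differences of 0.66 ± 0.22 for Bcl2l12 and -0.90 ± 0.15 for Bnip3l. Bcl2l15 had 63.3 ± 30.9 and 98.1 ± 41.6 (SD, n = 3) normalized counts in eYFP+ and eYFP- macrophages and 5.26 ± 4.59 in Ly6Chi monocytes, and was called higher in the latter than in Ly6Clo monocytes, where all 3 libraries were at 0. None of the other prosurvival relatives was called by DESeq2: Bcl2l2, the gene of Bcl-w, had group means from 69.1 to 157, and the other 2 of that list were near or at 0.

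Of 12 apoptosome and executioner genes Diablo and Endog were higher and Apaf1, Htra2 and Dffb lower in macrophages, by the mean of the groups. Apaf1, the scaffold on which cytochrome c activates caspases, had 613 ± 357 (SD, n = 3) normalized counts in eYFP+, 585 ± 592 in eYFP-, 3150 ± 139 in Ly6Chi and 1196 ± 589 in Ly6Clo libraries (macrophages against monocytes, log2 -1.70 ± 0.46, DESeq2 adjusted p = 0.00115). Diablo and Htra2, both antagonists of caspase inhibitors, were lower in Ly6Chi than in Ly6Clo monocytes by log2 differences of -0.82 ± 0.25 and -1.07 ± 0.23 (DESeq2 adjusted p = 0.015 and 0.000158). Diablo had means of 721 (eYFP+), 604 (eYFP-), 365 (Ly6Chi) and 642 (Ly6Clo), so macrophages stood above Ly6Chi monocytes only. Htra2 had 2253, 2445, 2695 and 5666 in the same order, with macrophages far below Ly6Clo monocytes but near Ly6Chi monocytes.

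Among 8 inhibitors of caspases Birc5 (survivin), which also serves chromosome segregation in dividing cells, was the 1 gene of all lists called between the macrophage groups. It had 834 ± 530 (SD, n = 3) normalized counts in eYFP+ and 2802 ± 1203 in eYFP- macrophages, a log2 difference of -1.75 ± 0.47 (SE, DESeq2 adjusted p = 0.0134). In the mean of the groups, Birc3, Birc6, Naip2 and Naip5 were lower and Birc5 higher in macrophages than in monocytes. Birc5 had 875 ± 169 in Ly6Chi and 624 ± 8.13 in Ly6Clo monocytes, so eYFP+ macrophages were near both and only eYFP- macrophages stood above. Birc6 was lower in Ly6Chi than in Ly6Clo monocytes. Its means were 1337 (eYFP+), 908 (eYFP-), 1249 (Ly6Chi) and 2865 (Ly6Clo), so macrophages were near Ly6Chi monocytes. Of 7 death receptor genes Fas was lower (log2 -2.54 ± 0.21, DESeq2 adjusted p = 3.88e-31) and Tnfrsf10b and Tradd higher in macrophages, and Fas and Casp8 were higher in Ly6Chi than in Ly6Clo monocytes.

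NF-kB factors are known to induce Bcl2a1 and Bcl2l1. Of 8 NF-kB genes none was called by DESeq2 between the macrophage groups, Nfkb1 and Nfkbiz were lower in Ly6Chi than in Ly6Clo monocytes, and Rel, Nfkbia and Nfkbiz were lower in macrophages than in monocytes. Nfkb1 had 4024 ± 1021 (SD, n = 3) normalized counts in Ly6Chi and 8195 ± 1599 in Ly6Clo monocytes, a log2 difference of -1.03 ± 0.27 (SE, DESeq2 adjusted p = 0.00407), and macrophages had 6179 ± 176 (eYFP+) and 5146 ± 397 (eYFP-). Of 8 genes of p53 and stress signalling Cdkn1a, the p21 gene, was lower in macrophages (log2 -2.76 ± 0.26, DESeq2 adjusted p = 9.5e-25) and Ddit3 (Chop) higher in macrophages and lower in Ly6Chi than in Ly6Clo monocytes. Ddit3 had means of 1394 (eYFP+), 1143 (eYFP-), 423 (Ly6Chi) and 1096 (Ly6Clo), so Ly6Clo monocytes were near macrophages. None of 5 genes that control the turnover of Mcl1 was called by DESeq2 in any of the 3 comparisons.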

How the data were processed

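Poly(A) RNA of 12 sorted-cell samples was measured as amplified full-length cDNA without molecular identifiers, so precision covers counting and replicate spread but not amplification. The deposited counts are whole numbers of read pairs per gene that the authors made by trimming and error correction, alignment with segemehl to GRCm39, and featureCounts with Ensembl v109 genes, from unambiguous pairs only; the submitters' processing notes also name bcl2fastq 2.20.0.422. TPM values were deposited by the authors as made from these counts and gene lengths. A deposited table of variance-stabilised values was not used, and 0 columns of per-sample values were left out of the tables used. The strand setting is not given in the sources used here.

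Groups and replicate numbers came from the labels. DESeq2 1.42.0 (R 4.3.3) was fitted to all 12 libraries with median-of-ratios size factors, Wald tests, unshrunken log2 fold changes and Benjamini-Hochberg adjustment over all genes left by independent filtering, with calls at an adjusted p under 0.05. Intervals of 95% rest on the SE and the normal distribution. The comparison of cell types is the mean of both macrophage group levels minus that of both monocyte group levels. For the summed Bcl2a1 copies the 3 counts were added before the fit. The alternatives were edgeR 4.0.16, limma 3.58.1 on log2(TPM + 1) and log2(TPM + 0.1), other scalings and filters, a GC correction, a replicate block and leaving out libraries; leaving out eYFP+ replicate 1 and Ly6Clo replicate 2 together was chosen after seeing the data. The scripts were tested on simulated data. Transcript identity was computed on GENCODE M21 transcripts and promoters came from the RefSeq promoter table (GRCm38.p6), in which all 10 members had an entry. Gene neighbours were ranked by the root mean square difference of centred log2 profiles among genes with a mean of at least 50 normalized counts. The members and lists were chosen with earlier results of these data known; list genes are named where they were among the 3 lowest adjusted p of their list in a comparison or where few were called. A few genes of the marker lists are not reported here.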

Additional observations from a re-analysis of the deposited data

How the results depend on the processing

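Of the member log2 changes recomputed under the alternatives, 725 were counted as keeping direction and side of the threshold, 16 lost and 7 gained a call and 22 changed sign, and the cause was not tested. Signs were compared after rounding to 2 decimals, and a rounded value of 0 counted as no sign change. Bcl2a1a between the macrophage groups, at 0.001, was thus always counted as kept, although it ran from -0.14 to 0.11. No sign change touched a called value. Between the macrophage groups 1 member (Bcl2) was called, and 0 with edgeR (-2.63, adjusted p = 0.119), limma on log2(TPM + 0.1) (-2.48, adjusted p = 0.0527) and the replicate block with edgeR (-2.69, adjusted p = 0.249); with the replicate block in DESeq2 it was -2.70 (adjusted p = 0.0043). Deviations of libraries with the same replicate number had r of 0.392, 0.212 and 0.071 in macrophages and 0.284, 0.068 and -0.0256 in monocytes. In both, only replicate 1 matched its own number best. With so few libraries these values cannot show whether replicate numbers pair the samples. Genes called between the macrophage groups numbered 439, but 64 with edgeR, 1156 with the block (40.7% against 7.5% of calls higher) and 24 with block and edgeR. They numbered 1030 with block and GC correction (43.1% higher) and 995 without both libraries that stood apart. Without single libraries they ran from 228 (eYFP- replicate 3) to 873 (Ly6Clo replicate 2), and without eYFP- replicate 2 34.2% of calls were higher. Between the monocyte groups they numbered 1870 (42.4% higher), from 1208 (without Ly6Chi replicate 2; 1228 and 1250 without replicates 1 and 3) to 2496 (without Ly6Clo replicate 1) on leaving out single libraries, 829 with edgeR, 537 with block and edgeR, and 1190 of 2244 calls were higher with the block. Between cell types the GC correction moved the share of higher calls from 57.5% to 43.1%, or 43.7% with the block. Leaving out single libraries changed signs of uncalled values. These values between macrophage groups ran from -0.14 to 0.11 for Bcl2a1a, -0.14 to 0.02 for Bcl2a1d, -0.06 to 0.55 for Bcl2l11, -0.78 to 0.24 for Bbc3 and -0.03 to 0.24 for the Bcl2a1 sum. Between monocyte groups they ran from -0.16 to 0.07 for Mcl1, -0.19 to 0.11 for Bax and -0.37 to 0.81 for Bbc3, and between cell types from -0.62 to 0.02 for Bbc3. With both libraries left out Bbc3 was 0.23 and the sum -0.04 (macrophage groups), Mcl1 0.07, Bax 0.11 and Bbc3 -0.37 (monocyte groups), and Bax 0.01 (cell types). Bcl2l1 was 0.03 between macrophage groups with the GC correction, with or without the block. Mcl1 between monocyte groups was 0.04 with edgeR, 0.03 with TMM scaling, 0.05 with block and edgeR and 0.01 on the 6 monocyte libraries alone. With normalized counts in place of TPM the Bcl2a1 share of the prosurvival sum was 50.6%, 49.1%, 6.5% and 53.7% (eYFP+, eYFP-, Ly6Chi, Ly6Clo). Bbc3 had the widest intervals of all members in these 3 comparisons.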
